A study of Mus musculus with 37 samples.

Results

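Nipbl and 9 genes of the cohesin complex were followed in embryonic mouse hearts taken at E10.5. The genes were chosen by name (Nipbl, Mau2, Smc1a, Smc3, Rad21, Stag1, Stag2, Wapl, Pds5a and Pds5b), and all 10 were found once each among the 25239 gene rows of the count table. Bulk paired-end RNA-seq gave 37 heart libraries of 4 genotypes: 10 of Nipbl +/+; Isl1 +/+ (wildtype here), 9 of Isl1 +/-, 9 of Nipbl +/- and 9 of Nipbl +/-; Isl1 +/- (double heterozygous here). Fathers carried Stra8-iCre and one Nipbl Flox allele, so that their sperm held either Nipbl Flox, which acts as wildtype, or Nipbl FIN, which is null. Mothers were Isl1 Cre/+, with the Cre gene placed in one Isl1 allele and that allele's function lost, so the embryos scored Isl1 +/- also carry Cre. By this account the embryos scored Nipbl +/+ carry Nipbl Flox. Whether Cre changed that allele in Isl1 +/- hearts was not tested. Both Nipbl copies intact means scored Nipbl +/+ in what follows. The crosses tested whether loss of one copy of Nipbl and loss of one copy of Isl1, a transcription factor of heart progenitors, interact in the heart. Which parts of Nipbl the null allele still transcribes was not measured, so counts on Nipbl can include transcripts of that allele. In whole hearts, fewer cells of a type and less RNA per cell cannot be told apart. The labels do not say how many embryos a library holds, so p-values measure the spread between libraries.

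Cohesin is a ring of SMC1A, SMC3 and RAD21 that encircles DNA, holds sister chromatids together and extrudes chromatin loops. NIPBL, with its partner MAU2, loads the ring and drives loop extrusion, one of the alternative subunits STAG1 and STAG2 docks on RAD21, and WAPL with PDS5A or PDS5B takes rings off. Heterozygous loss of NIPBL is the most frequent known cause of Cornelia de Lange syndrome, in which heart defects are common, and Nipbl +/- mice are its main animal model.

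In GRCm38 coordinates (GENCODE M21), the loader genes are Nipbl at chr15:8290617-8444463 and Mau2 at chr8:70016123-70042734, both on the minus strand. The ring genes are Smc1a at chrX:152016428-152062694 (plus), Smc3 at chr19:53600398-53645833 (plus) and Rad21 at chr15:51962240-51991747 (minus). Stag1 lies at chr9:100597798-100959375 and Stag2 at chrX:42149317-42277185, both on the plus strand. Wapl lies at chr14:34673928-34747983 (plus), Pds5a at chr5:65605721-65698273 (minus) and Pds5b at chr5:150673739-150810690 (plus). Exons of another annotated gene overlapped those of Stag2 over 28 bases and those of Pds5a over 255 and 119 bases, each time on the opposite strand. The promoter windows below are shown because Stag1 was the only partner gene whose level passed a test between Nipbl genotypes, and Smc3 is a ring gene whose window, like that of Stag1, holds no annotated exon. Each is the 250 bases before the RefSeq start on the plus strand, read 5′ to 3′ from RefSeq's promoter table (GRCm38.p6), with capitals for the GC box core GGGCGG, read as CCGCCC when it lies on the opposite strand, and for the CCAAT box, read as ATTGG there. The Smc3 window is chr19:53600146-53600395. The Stag1 window, chr9:100643198-100643447, lies inside the longer GENCODE gene span, in an intron there.
Smc3: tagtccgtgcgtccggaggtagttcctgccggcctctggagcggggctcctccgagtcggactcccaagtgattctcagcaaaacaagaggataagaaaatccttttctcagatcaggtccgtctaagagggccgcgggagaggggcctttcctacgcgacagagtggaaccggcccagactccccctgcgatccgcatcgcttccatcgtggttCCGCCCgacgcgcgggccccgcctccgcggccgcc
Stag1: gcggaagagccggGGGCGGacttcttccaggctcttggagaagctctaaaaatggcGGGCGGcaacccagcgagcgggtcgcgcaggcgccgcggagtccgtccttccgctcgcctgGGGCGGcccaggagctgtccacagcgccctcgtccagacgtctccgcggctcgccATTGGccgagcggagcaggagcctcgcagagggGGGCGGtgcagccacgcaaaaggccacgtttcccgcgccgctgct
Stag1 held 4 copies of GGGCGG and 1 CCAAT box on the opposite strand, and Smc3 held 1 GGGCGG on the opposite strand. The table matched 7 of the 10 genes (Mau2, Smc1a, Smc3, Stag1, Wapl, Pds5a and Pds5b). The GC box core occurred on either strand in 7 of these 7 windows, against 32.7% of 32851 promoter windows of the same length, and the CCAAT box in 4 of 7 against 33.8%. The cell cycle element TTTGAA occurred in 1 (Pds5b), against 16.0%. The TATA box TATAAA, the E2F site TTTCGCG, the NRF1 palindrome, the ETS site CCGGAAG and the cyclic AMP element TGACGTCA, searched on both strands too, occurred in none, against 12.4%, 0.703%, 0.782%, 6.91% and 1.55% of all windows. The GC content was 54.8% for Mau2, 56.8% for Smc1a, 64.4% for Smc3, 67.6% for Wapl, 71.2% for Stag1, 75.6% for Pds5b and 80.4% for Pds5a, against a median of 52.4% over all windows, so Mau2 and Smc1a lay near it. The number of CpG pairs ran from 16 in Smc1a and 18 in Mau2 to 44 in Pds5a, against a median of 6 over all windows. The shares of windows with a motif were not matched for GC or CpG content. The motifs are matches of letters, and binding was not measured.

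Libraries held 23356831 to 50974736 counts on genes, with a median of 36239721. The smallest count of any of the 10 genes in any library was 749, for Nipbl, so counting error was small beside the spread between libraries. All cardiomyocyte markers were detected in every library, with a summed level of 22890 to 36250 CPM (counts scaled to a common library total), which fits the label heart. Erythroid markers summed to 483 to 105392 CPM, and their part in the genotype comparisons was not tested. The number after the letters IVF in each library's description gave its set (1, 2, 5, 6 or 7), and the labels do not spell out what it marks. Set 1 held only wildtype and Isl1 +/- hearts. Set 7 held only 1 double heterozygous heart (replicate 2), which a fit with set as a term therefore fits exactly. 2 libraries stood apart. Nipbl +/- replicate 2 lay at 99.2 on the first principal component of levels centred within genotype and set, where the others lay between -35.8 and 15.5, and it had the lowest erythroid sum. It carried the highest level of all 37 libraries for Mau2, Smc1a, Smc3, Rad21, Stag1, Stag2 and Wapl, and 7 of the 10 genes exceeded the median of the other 8 Nipbl +/- libraries by more than 1.5-fold, as did 27.4% of all genes tested. Results that rest on this library are given with and without it. Nipbl +/- replicate 9 held 328 CPM of 3 liver and endoderm markers (Afp, Ttr and Apoa1), where the other 3 genotypes held at most 16.5 and the Nipbl +/- median was 1.45. Without replicate 9 the averaged change was -0.79 for Nipbl and 0.27 for Stag1 (adjusted p = 0.028 by edgeR), and the number of correlated partners (8 of 9) and pairs (35 of 45) was the same as with it.

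Nipbl, the loader subunit targeted by the cross, was lower in both Nipbl +/- genotypes. In wildtype hearts its lowest, median and highest levels were 47.6, 57.0 and 78.8 CPM (mean 60.0 ± 10.1, SD, n = 10), and in Isl1 +/- hearts 52.0, 61.1 and 72.9 CPM (61.5 ± 5.88, n = 9). In Nipbl +/- hearts they were 27.1, 37.6 and 72.4 CPM (39.3 ± 13.8, n = 9), and in double heterozygous hearts 28.2, 37.2 and 51.5 CPM (38.1 ± 7.41, n = 9). Of the 18 Nipbl +/- libraries of either Isl1 genotype, 16 lay below every library with both Nipbl copies intact. The exceptions were Nipbl +/- replicate 2, at 72.4 CPM, and the double heterozygous library of set 7, at 51.5 CPM.

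Nipbl fell by 0.74 on the log2 scale in Nipbl +/- against wildtype hearts (95% interval -0.97 to -0.50, adjusted p = 3.5e-04 by edgeR's quasi-likelihood test with Benjamini-Hochberg adjustment), a level 0.599 times that of wildtype. It was the only one of the 10 genes past the threshold there, where 0.518% of the 15046 genes tested fell, 1.2% rose and 1.71% passed in either direction. Between double heterozygous and wildtype hearts the change of Nipbl was -0.82 (-1.07 to -0.58), and again it alone passed, against 0.824% of genes that fell, 1.77% that rose and 2.6% in either direction. Between double heterozygous and Isl1 +/- hearts it was -0.86 (-1.10 to -0.61), again alone, against 0.425% that fell, 0.532% that rose and 0.957% in either direction. Averaged over the Isl1 genotypes, Nipbl changed by -0.80 (-0.98 to -0.62, adjusted p = 4.4e-07 by edgeR), to 0.575 times its level. These comparisons share libraries and are not independent of each other. The counts over all genes moved with single libraries. When each library was left out in turn, the 258 genes past the threshold in Nipbl +/- against wildtype became 167 (without Nipbl +/- replicate 9) to 410. The 391 in double heterozygous against wildtype became 244 (without double heterozygous replicate 4) to 839, and the 144 in double heterozygous against Isl1 +/- became 73 (without Isl1 +/- replicate 6) to 361. All 3 highest counts were those without Nipbl +/- replicate 2. For Nipbl itself, without that replicate the change against wildtype was -0.88 and the average -0.86. Within sets, the difference of mean log2 CPM between Nipbl +/- and wildtype was -0.96 in set 2 (2 against 3 libraries), -0.43 in set 5 (4 against 2, and -0.67 without replicate 2) and -1.04 in set 6 (3 against 2), so it was negative in each set that held both. When set 2 was left out, the Nipbl +/- against wildtype comparison no longer passed (-0.66, adjusted p = 0.058).

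**Figure D1:**
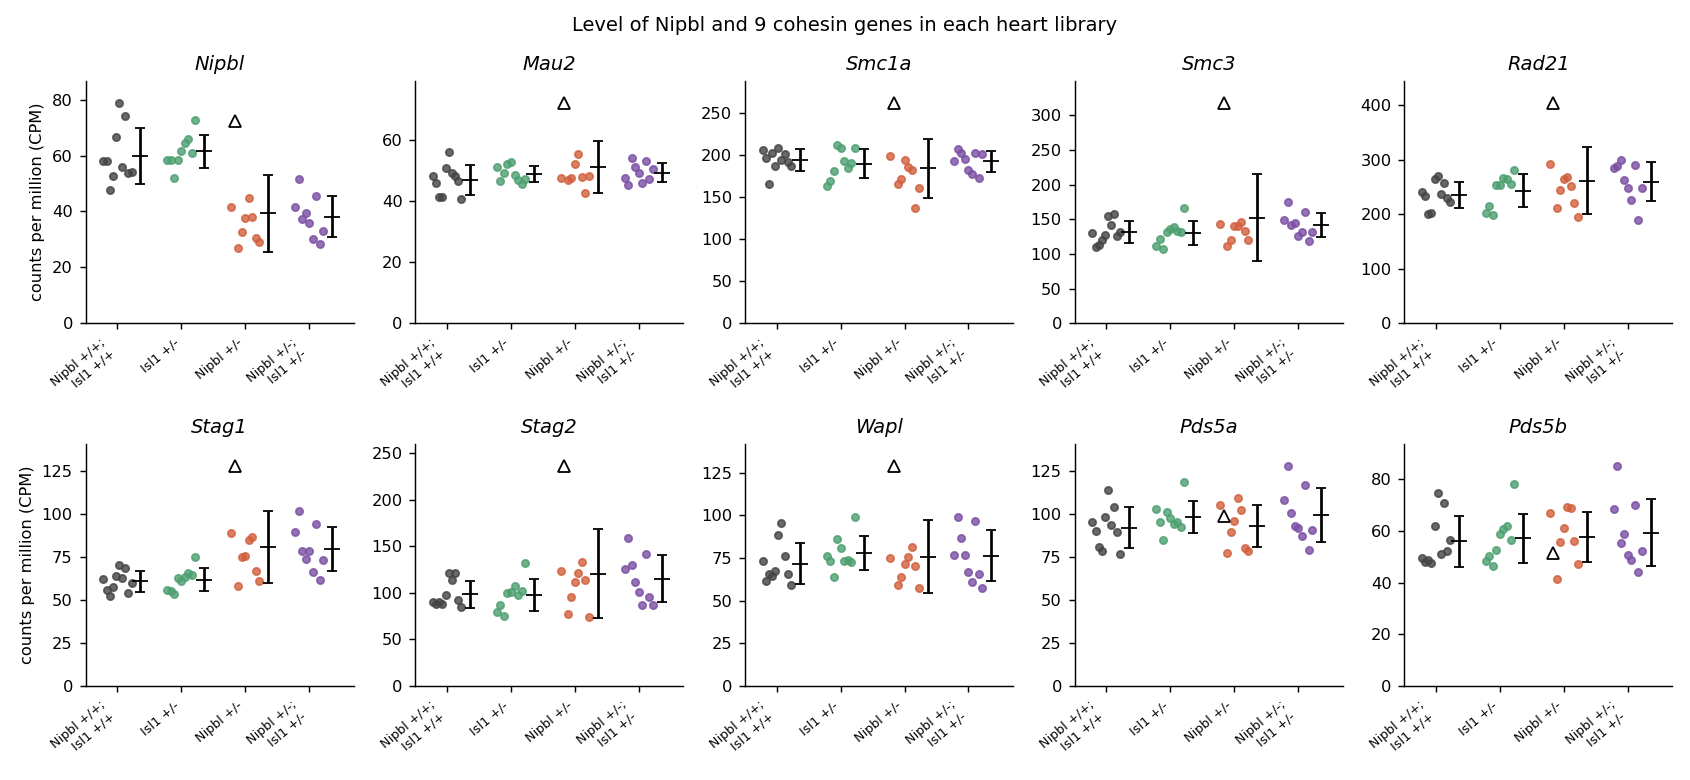
Level of each gene in every library (CPM, axis from 0) by genotype; points are libraries, the triangle is Nipbl +/- replicate 2, and the bar beside each group is its mean ± SD (n = 10, 9, 9 and 9). Nipbl means were 60.0, 61.5, 39.3 and 38.1 CPM, and the triangle is the highest point in 7 of the 10 panels.

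Set against its own partners, Nipbl separated the genotypes without overlap. The difference between log2 CPM of Nipbl and the mean log2 CPM of the other 9 genes does not depend on how libraries are scaled to each other. In wildtype hearts it ran from -0.85 through a median of -0.69 to -0.52, and in Isl1 +/- hearts from -0.78 through -0.66 to -0.57. In Nipbl +/- hearts it ran from -1.59 through -1.51 to -1.09, and in double heterozygous hearts from -1.60 through -1.42 to -1.29. All 18 libraries of the 2 Nipbl +/- genotypes lay below all 19 others, with a gap of 0.24, and the highest of the 18 was Nipbl +/- replicate 2. That library, whose Nipbl level in CPM was inside the wildtype range, thus had less Nipbl relative to its partners than any library with both copies intact. This measure was chosen after the values were seen and is a description. Of the 15046 genes tested, 0.0266% lay lower without overlap by the same measure: Nipbl, Klf14, Slitrk5 and Trib2.

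The separation did not depend on one partner in the mean. With any one of the 9 left out of the mean, all 18 libraries stayed below the other 19. Against a single partner, all 18 stayed below with Smc3, Rad21, Stag1 or Stag2, and the gap was widest, 0.65, for Stag1. Against Mau2, Smc1a, Wapl, Pds5a or Pds5b alone, 17 of the 18 did. The exception was Nipbl +/- replicate 2 for Smc1a, Pds5a and Pds5b, Nipbl +/- replicate 6 for Wapl and double heterozygous replicate 2 for Mau2.

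**Figure D2:**
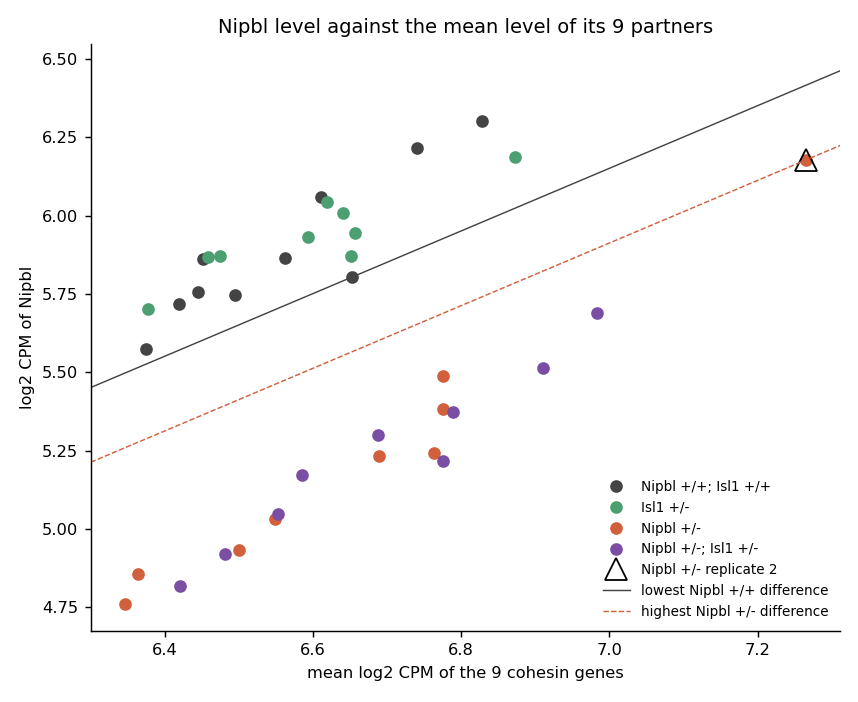
Log2 CPM of Nipbl against the mean log2 CPM of its 9 partners; each point is a library, coloured by genotype, with Nipbl +/- replicate 2 ringed by a triangle. The solid line marks the lowest Nipbl +/+ difference (-0.85) and the dashed line the highest Nipbl +/- difference (-1.09), and no library lies between them.

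Mau2, the obligate partner of NIPBL in the loader, did not pass a test between any genotypes in the main fit. Its lowest, median and highest levels were 40.7, 47.4 and 56.1 CPM in wildtype hearts, 45.7, 48.7 and 52.7 in Isl1 +/- hearts, 42.6, 47.9 and 72.2 in Nipbl +/- hearts and 45.2, 49.1 and 54.2 in double heterozygous hearts, so the groups overlapped. Averaged over Isl1 genotypes, the change with loss of one Nipbl copy was 0.06 (95% interval -0.06 to 0.17). Per kilobase of exon, the log2 ratio of Nipbl to Mau2 was 0.30 ± 0.14 (SD, n = 10) in wildtype and 0.28 ± 0.18 (n = 9) in Isl1 +/- hearts, but -0.47 ± 0.25 in Nipbl +/- and -0.44 ± 0.28 in double heterozygous hearts (n = 9 each). By summed exon length, loader transcripts thus went from more Nipbl than Mau2 per kilobase to less. With the longest coding transcript as the length, Nipbl was already below Mau2 in wildtype hearts (6.37 against 8.72 CPM per kilobase), so the sign depends on the length used and the drop does not.

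The ring genes did not pass a test between Nipbl genotypes in the main fit either. Smc1a levels were 165, 196 and 209 CPM (lowest, median, highest) in wildtype, 163, 191 and 212 in Isl1 +/-, 137, 183 and 262 in Nipbl +/- and 172, 196 and 208 in double heterozygous hearts. Smc3 levels were 111, 129 and 158, then 107, 132 and 166, then 111, 140 and 318, then 119, 142 and 175 CPM, in the same order of genotypes. Rad21, the subunit that closes the ring and is cut by separase, had levels of 200, 236 and 270, then 198, 254 and 281, then 195, 251 and 404, then 189, 263 and 299 CPM. In each gene the groups overlapped, and the highest value in Nipbl +/- hearts was replicate 2.

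Averaged over Isl1 genotypes, the change was -0.10 for Smc1a (95% interval -0.22 to 0.02), 0.04 for Smc3 (-0.17 to 0.24) and -0.01 for Rad21 (-0.15 to 0.13). Together these intervals reach from -0.22 (Smc1a) to 0.24 (Smc3), where Nipbl changed by -0.80. Without Nipbl +/- replicate 2, Smc1a passed in Nipbl +/- against wildtype hearts, at -0.21 with an adjusted p of 0.050 (edgeR, just under the threshold), where with that library it was -0.14 (adjusted p = 0.40).

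Stag1, one of the alternative ring-docking subunits, was the only partner gene past the threshold in the averaged Nipbl change of the main fit, where it rose. Its lowest, median and highest levels were 52.4, 61.0 and 70.2 CPM in wildtype hearts and 53.3, 62.4 and 75.1 CPM in Isl1 +/- hearts. They were 57.9, 75.7 and 128 CPM in Nipbl +/- hearts and 61.8, 78.1 and 102 CPM in double heterozygous hearts. The groups overlapped, but 6 of 9 Nipbl +/- and 7 of 9 double heterozygous libraries lay above every wildtype library, as did 1 of 9 Isl1 +/- libraries. Averaged over Isl1 genotypes Stag1 rose by 0.25 (95% interval 0.11 to 0.40, adjusted p = 0.031 by edgeR), to 1.19 times its level. Medians of markers of other cell types varied between these groups too, and no test between genotypes was run on them. The summed neuron markers had medians of 31.1 CPM in wildtype and 29.0 in Isl1 +/- hearts, against 43.8 in Nipbl +/- and 37.7 in double heterozygous hearts, with ranges of 22.9 to 53.1, 21.1 to 39.5, 17.3 to 50.7 and 27.5 to 52.3. The summed endothelial markers had medians of 312, 358, 353 and 401 CPM in that order, with ranges of 244 to 379, 236 to 440, 266 to 461 and 255 to 469. All these ranges overlapped, and all 3 markers of each list were detected in every library. The summed erythroid markers had medians of 10480, 14399, 6596 and 15074 CPM in that order, and the cycling markers 1521, 1470, 1453 and 1508 CPM. The part of these lists in the Stag1 change was not tested. Of the 9 partners 1, Stag1, was past the threshold in the averaged change, against 4.02% of all genes (2.67% higher and 1.36% lower). That share stands for 605 genes, and 1044 passed without Nipbl +/- replicate 2. Nipbl, the gene targeted by the cross, passed in the opposite direction.

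In the single comparisons Stag1 did not pass: 0.28 (0.10 to 0.47, adjusted p = 0.11) in Nipbl +/- against wildtype, 0.24 (0.05 to 0.43, adjusted p = 0.26) in double heterozygous against wildtype and 0.22 (0.03 to 0.42, adjusted p = 0.49) in double heterozygous against Isl1 +/- hearts, all by edgeR. Without Nipbl +/- replicate 2, whose Stag1 level of 128 CPM was the highest of all, the average was 0.21 (adjusted p = 0.0026). The double heterozygous comparisons then passed too, at 0.25 (adjusted p = 0.011) and 0.23 (adjusted p = 0.031), while Nipbl +/- against wildtype was 0.18 (adjusted p = 0.093). The averaged call was lost when wildtype replicate 4 (0.23, adjusted p = 0.066) or 5 (0.24, 0.050, just over the threshold) or Isl1 +/- replicate 6 (0.24, 0.058), 7 (0.24, 0.050, just over) or 8 (0.24, 0.059) was left out. It was also lost without set 1 (0.24, 0.068), set 6 (0.26, 0.076) or set 5 (0.13, 0.31).

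The Stag1 difference also varied by set. Between Nipbl +/- and wildtype libraries of one set, the difference of mean log2 CPM was 0.01 in set 2 (2 against 3 libraries), 0.56 in set 5 (4 against 2, and 0.39 without replicate 2) and 0.19 in set 6 (3 against 2). For double heterozygous against wildtype it was 0.12 (2 against 3), 0.37 (5 against 2) and 0.44 (1 against 2). For double heterozygous against Isl1 +/- it was 0.05 (2 against 2), 0.28 (5 against 3) and 0.32 (1 against 1), so the set 6 values rest on 1 double heterozygous library. All of these were positive, and those of set 2 were the smallest. Whether the difference itself changed with set was not tested.

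**Figure D3:**
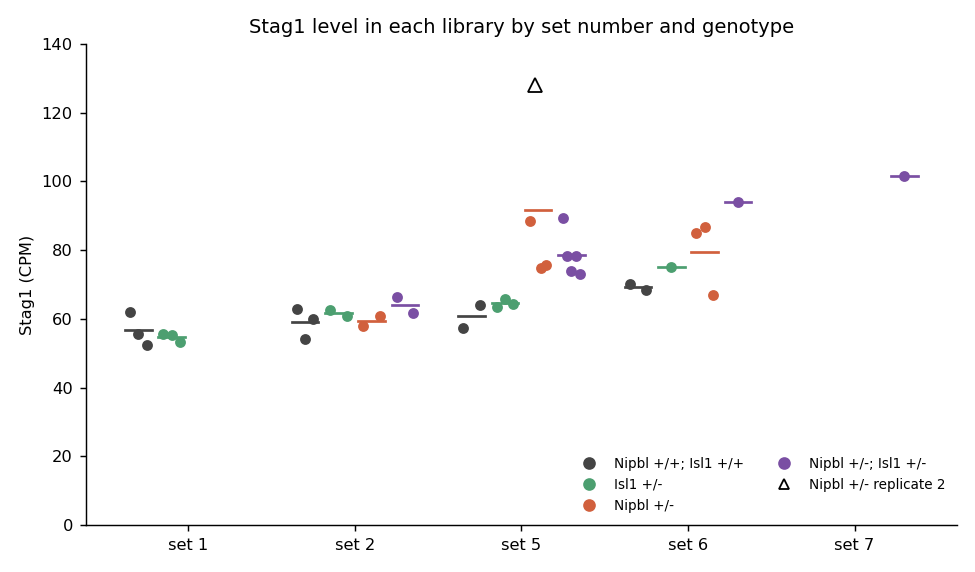
Stag1 level (CPM, axis from 0) of each library by set number, coloured by genotype; short lines are means and the triangle is Nipbl +/- replicate 2. In set 2 the within-set difference between Nipbl +/- and wildtype was 0.01 on the log2 scale, against 0.56 in set 5 and 0.19 in set 6.

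Stag2, the X-linked alternative to Stag1, had levels of 84.6, 91.4 and 122 CPM in wildtype, 75.3, 99.6 and 132 in Isl1 +/-, 74.5, 113 and 237 in Nipbl +/- and 86.6, 111 and 159 in double heterozygous hearts, with overlap throughout. Its averaged change was 0.08 (95% interval -0.13 to 0.29) and did not pass. The log2 ratio of Stag1 to Stag2 per kilobase was -1.20 ± 0.13 (SD, n = 10) in wildtype, -1.16 ± 0.11 in Isl1 +/-, -1.05 ± 0.19 in Nipbl +/- and -1.03 ± 0.16 in double heterozygous hearts (n = 9 each). Stag2 transcripts outnumbered those of Stag1 per kilobase in every group mean.

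Wapl, which opens the ring and takes cohesin off DNA, had levels of 59.1, 66.5 and 95.6 CPM in wildtype, 63.7, 74.0 and 98.9 in Isl1 +/-, 57.7, 71.4 and 129 in Nipbl +/- and 57.6, 76.8 and 98.9 in double heterozygous hearts. Pds5a, which works with WAPL and also protects acetylated rings, had levels of 76.8, 91.8 and 114, then 84.9, 95.6 and 119, then 77.6, 95.9 and 109, then 79.0, 93.2 and 128 CPM in that order. Pds5b, its paralog, had levels of 47.6, 51.7 and 74.5, then 46.4, 56.5 and 78.3, then 41.6, 56.0 and 69.2, then 44.2, 55.5 and 85.2 CPM. The genotypes overlapped for all 3 genes.

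The averaged changes were -0.07 for Wapl (95% interval -0.26 to 0.12), -0.05 for Pds5a (-0.16 to 0.05) and -0.12 for Pds5b (-0.23 to -0.01). The interval of Pds5b did not hold 0, but its adjusted p over all genes was 0.26 (edgeR). Pds5b passed when set 5 was left out, at -0.22 (adjusted p = 0.038).

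Loss of one Isl1 copy, and the interaction of both losses, moved none of the 10 genes past the threshold. In Isl1 +/- against wildtype hearts 0 of 10 passed, against 0% of all genes (0 of 15046 by edgeR, 886 at an unadjusted p under 0.05, and 11 by DESeq2). The changes of the 10 genes ran from -0.04 for Smc1a to 0.13 for Wapl, and that of Nipbl was 0.03 (95% interval -0.19 to 0.25). In double heterozygous against Nipbl +/- hearts 0 of 10 passed, against 0% of all genes (1355 at an unadjusted p under 0.05, and 0 by DESeq2), and Nipbl changed by -0.08 (-0.32 to 0.15). Averaged over Nipbl genotypes, 0 of 10 passed, against 0.173% of all genes (26, and 4 to 73 when single libraries were left out, the highest without wildtype replicate 7 and the lowest without double heterozygous replicate 5 or 9). No member reached an unadjusted p under 0.05 in these comparisons by edgeR, and DESeq2 called none.

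In the interaction term, which asks whether the Nipbl change differs between Isl1 genotypes, 0 of 10 genes passed, against 0% of all genes (411 at an unadjusted p under 0.05, and 0 by DESeq2). The term was -0.12 for Nipbl (95% interval -0.44 to 0.20) and -0.06 for Stag1 (-0.31 to 0.19). These intervals still allow interaction terms as low as -0.44 and -0.31, so they do not show that the Nipbl change was alike in both Isl1 genotypes. Over the 9 partners, the median change was 0.02 in Nipbl +/- against wildtype, -0.01 in double heterozygous against wildtype and -0.01 for the averaged Nipbl change, beside 0.0080, -0.0019 and 0.0053 over all genes tested.

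**Figure D4:**
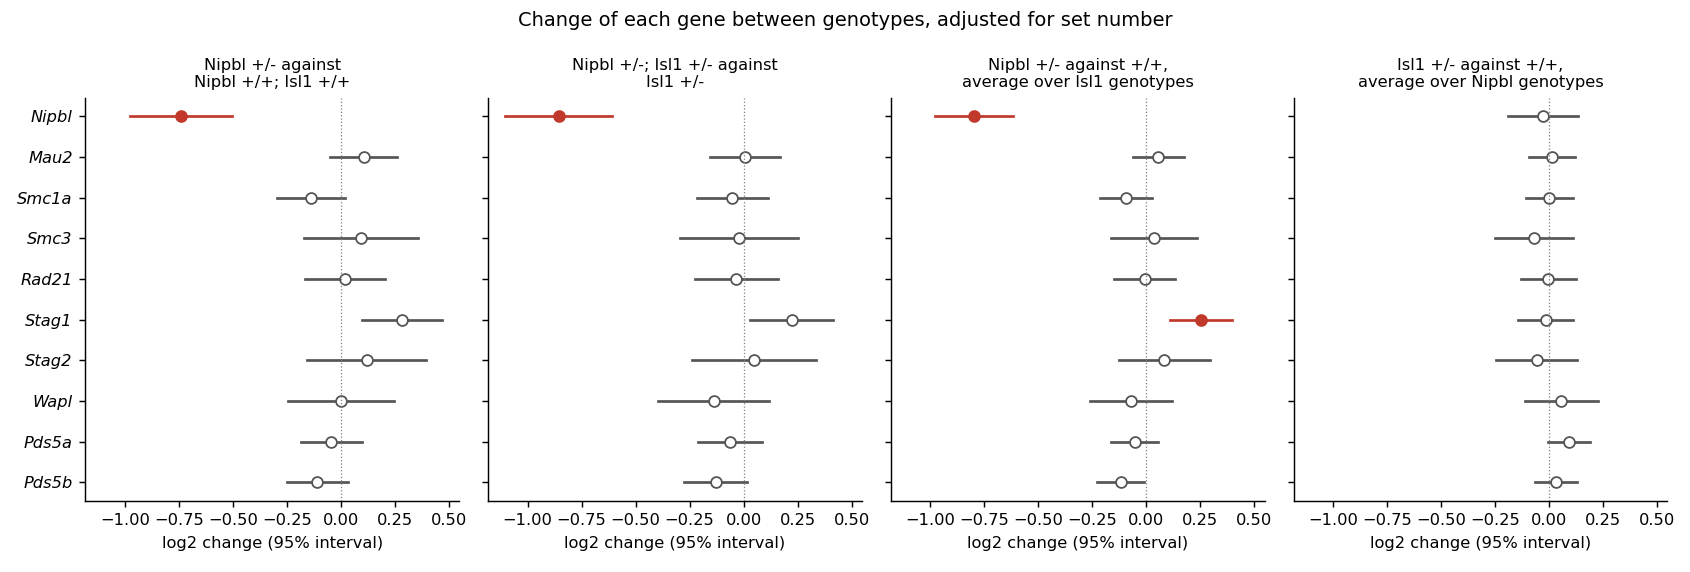
Log2 change of each gene with its 95% interval in 4 comparisons, from the edgeR fit with genotype and set number; filled red points passed an adjusted p of 0.05. Nipbl lies near -0.80 in the 3 Nipbl comparisons, Stag1 passes only in the average (0.25), and nothing passes for Isl1.

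Per kilobase of exon the 10 genes differed by about 1 order of magnitude in wildtype hearts. Rad21 stood first at 55.7 ± 5.59 CPM per kilobase (SD, n = 10), followed by Smc1a at 33.7 ± 2.20 and Smc3 at 23.7 ± 2.91. These 3 ring genes did not overlap each other or the rest in any wildtype library. Stag2 (11.9 ± 1.75) and Wapl (10.8 ± 1.81) came next, with overlapping ranges, and Wapl lay above Nipbl in all 10 libraries. Nipbl (6.37 ± 1.07), Pds5b (5.69 ± 1.00), Stag1 (5.15 ± 0.504), Mau2 (5.13 ± 0.530) and Pds5a (4.76 ± 0.607) closed the order, each overlapping its neighbour. In Nipbl +/- and double heterozygous hearts Nipbl moved from place 6 to place 10, at 4.17 ± 1.46 and 4.04 ± 0.786, and Stag1 moved from place 8 to place 6. The order of the last 5 depended on the length used. With the longest coding transcript in place of all exons, Nipbl was already in place 10 in wildtype hearts and Pds5a rose to 10.3 ± 1.31 CPM per kilobase.

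The other pathway genes reported here did not pass a test. They were 23 genes: the germline subunits Smc1b, Stag3, Rec8 and Rad21l, the acetylation and release factors Esco1, Esco2, Hdac8 and Cdca5, the protection and cleavage factors Sgo1, Sgo2a, Espl1 and Pttg1, the replication-coupled factors Chtf18, Chtf8, Dscc1, Ddx11, Wdhd1, Timeless and Tipin, and the chromatin partners Ctcf, Med12, Ankrd11 and Aff4. Rad21l, with at most 4 counts in any library, fell under the filter on low counts, and of the 22 others 0 passed in each of the 8 comparisons by edgeR. Between 0% and 4.02% of all genes passed in these comparisons, so a count of 0 among 22 is near the background. At an unadjusted p under 0.05 stood 3 of the 22 in Nipbl +/- against wildtype, 1 in double heterozygous against wildtype and 5 in the averaged Nipbl change, beside 2267, 1739 and 2243 of the 15046 genes tested. The median change of the 22 genes was -0.06 in Nipbl +/- against wildtype, -0.02 in double heterozygous against wildtype and -0.06 in the averaged Nipbl change.

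The level of several of these genes also went with the set of a library. Set number passed for 6 of 10 genes (Nipbl, Rad21, Stag1, Stag2, Pds5a and Pds5b), against 38.2% of all genes tested, with genotype in the same fit. Pds5b had the smallest adjusted p, 2.1e-06 by edgeR. With Nipbl +/- replicate 2 left out, 8 of 10 passed, with Smc3 (adjusted p = 1.6e-05, edgeR) and Wapl (0.0041) added, against 8393 genes in all in place of 5745. Without set 5 the same 8 passed. Rad21 (adjusted p = 0.067) and Stag2 (0.060) were lost without set 1, Stag2 (0.059) without set 6, and Rad21 (0.22) with 2 surrogate variables, where Smc3 and Wapl entered. Without set 2 only Pds5b passed, against 1420 genes in all, and with a library's length index (long against short transcripts) as covariate only Pds5a and Pds5b did, against 4160. Relative to set 1, Pds5b was higher by 0.10 in set 2, 0.33 in set 5 and 0.59 in set 6, and Nipbl by -0.05, 0.30 and 0.37. In libraries with both Nipbl copies intact, Pds5b averaged 48.5 ± 1.29 CPM in set 1 (SD, n = 6) and 74.5 ± 3.79 CPM in set 6 (n = 3), and these did not overlap.

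Pooled over genotypes, the levels of Nipbl and most of its partners correlated between libraries of one genotype and set. Levels (log2 CPM) were centred on the mean of each genotype and set with at least 2 libraries, which left 34 libraries in 12 such groups, and p-values came from 100000 permutations within these groups, adjusted over the 9 partners. Pearson's r with Nipbl was 0.91 for Stag1, 0.91 for Rad21, 0.88 for Smc3, 0.82 for Stag2, 0.81 for Mau2, 0.77 for Smc1a, 0.73 for Wapl, 0.56 for Pds5a and 0.21 for Pds5b. Of these, 8 of 9 passed, with adjusted permutation p from 9.0e-05 to 0.015, and Pds5b did not (0.47). Correlation with Nipbl was common among all genes. Adjusted over all 15045 other genes instead, the same 8 of 9 partners passed, against 31.9% of all genes (16.3% with a positive r) and 36.8% of genes with at least 5 kb of exon. Spearman's rho ran from 0.38 for Smc1a, which did not pass (adjusted permutation p = 0.12), to 0.81 for Rad21, and the 8 others passed by rho, with adjusted permutation p from 4.5e-04 to 0.029.

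Within single genotypes r varied widely. In wildtype hearts (10 libraries) it ran from 0.23 for Wapl to 0.98 for Rad21, with 0.82 for Pds5a and 0.81 for Mau2, and in Isl1 +/- hearts (8) from -0.85 for Smc1a to 0.82 for Pds5b. In Nipbl +/- hearts (9, with replicate 2) it ran from -0.08 for Pds5b to 0.97 for Rad21, and in double heterozygous hearts (7) from -0.33 for Mau2 to 0.88 for Pds5b, with -0.11 for Smc1a. Few orders of the libraries are possible within 1 genotype: 144 in wildtype, 72 in Isl1 +/-, 288 in Nipbl +/- and 240 in double heterozygous hearts. The smallest permutation p these allow is 0.0069 in wildtype and 0.014 in Isl1 +/- hearts, so a lone partner could not pass there after adjustment over 9. In Nipbl +/- hearts 7 of 9 passed by r and 0 by rho, and in the other 3 genotypes 0 did by either, which does not show that a correlation was absent. The r of Smc3, Rad21, Stag1, Stag2, Wapl and Pds5a was positive in each of the 4 genotypes.

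One library decided which partners looked closest. Without Nipbl +/- replicate 2 (33 libraries), r was 0.86 for Pds5a, 0.80 for Pds5b, 0.81 for Rad21, 0.78 for Stag1, 0.65 for Smc3, 0.60 for Mau2, 0.56 for Smc1a, 0.50 for Stag2 and 0.41 for Wapl. Again 8 of 9 passed after adjustment over the 9, but Pds5b entered and Smc1a dropped out (adjusted permutation p = 0.094), and by rho 6 of 9 passed. Adjusted over all genes 7 of 9 passed, since Mau2 did not (adjusted permutation p = 0.072), against 32.6% of all genes (16.4% with a positive r) and 38.4% of genes with at least 5 kb of exon. With both libraries farthest in Nipbl left out (Nipbl +/- replicates 2 and 4, 32 libraries), r ran from 0.37 for Wapl to 0.85 for Pds5a, and 8 of 9 passed. In the 18 libraries with both Nipbl copies intact, r was 0.93 for Rad21 and 0.80 for Pds5a, and these 2 of 9 passed. In the 15 Nipbl +/- libraries of either Isl1 genotype without replicate 2, r was 0.91 for Pds5a, 0.85 for Pds5b, 0.82 for Stag1, 0.75 for Rad21 and 0.72 for Smc3, and these 5 of 9 passed. By r, Rad21 and Pds5a passed both in libraries with both copies intact and in these 15, and by rho Pds5b also did (adjusted permutation p = 0.043 and 0.0016).

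**Figure D5:**
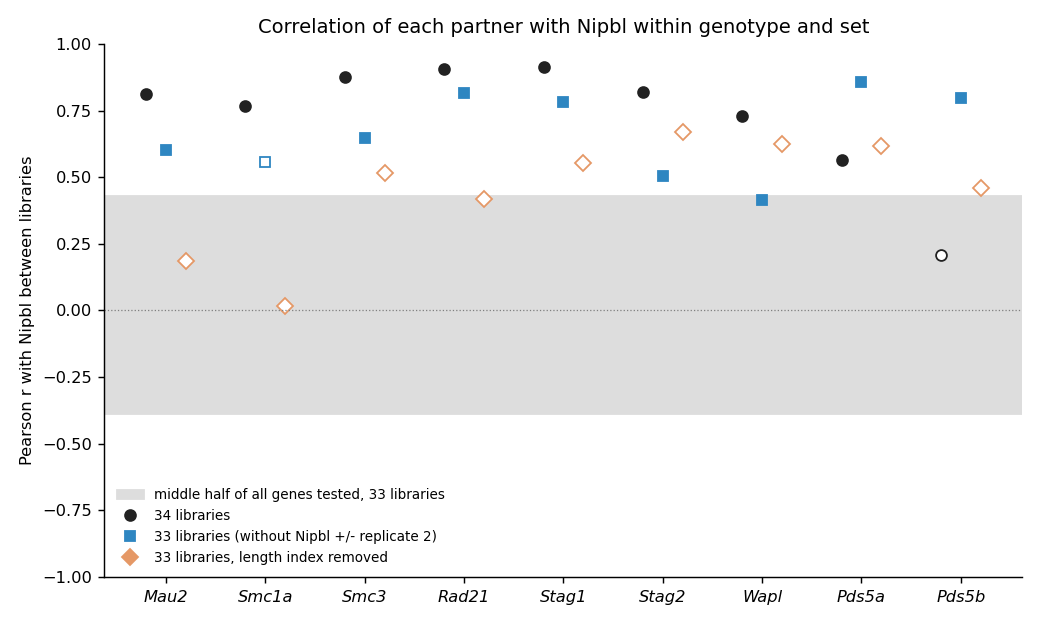
Pearson's r of each partner with Nipbl between libraries, centred within genotype and set; circles use 34 libraries, squares 33 without Nipbl +/- replicate 2, and diamonds the same 33 after removal of the length index; filled symbols passed an adjusted permutation p of 0.05. The grey band holds the middle 50% of all genes tested (33 libraries); Pds5b moves from 0.21 to 0.80 between circles and squares.

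High correlation with Nipbl was common among long transcripts. Over 15045 other genes the median r with Nipbl was 0.02, with quartiles of -0.47 and 0.50, but it was 0.34 for genes with at least 5 kb of exon and -0.42 for genes under 2 kb. Set against the genes of at least 5 kb, the r of Rad21, which itself has 4.23 kb of exon, exceeded that of 98.0% and the r of Stag1 that of 98.3%, while Wapl exceeded 79.4%, Pds5a 64.7% and Pds5b 41.9%. Without Nipbl +/- replicate 2 these shares were 97.0%, 94.4%, 50.9%, 98.8% and 95.6%. The shares of the other 4 partners fell when that library was left out, from 95.2% to 77.0% for Smc3, 89.1% to 59.6% for Stag2, 88.5% to 70.9% for Mau2 and 83.3% to 65.3% for Smc1a. Stag2 and Wapl, which passed without the library, were thus near the middle of the long genes there. A library's length index, the median log2 CPM of genes of at least 5 kb minus that of genes under 2 kb, correlated with Nipbl at r = 0.80 (rho = 0.81, adjusted permutation p = 1.6e-04 and 8.0e-05 over 8 library measures, n = 34), and at 0.86 without replicate 2. That library had the highest index of all, at 0.69.

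With the length index removed from both genes, 5 of 9 partners passed in 34 libraries. Without replicate 2 as well, 0 of 9 passed, with r from 0.02 for Smc1a to 0.67 for Stag2, and 6 of the 9 stood at an adjusted permutation p of 0.050, just over the threshold. The summed level of 3 endothelial markers also correlated with Nipbl (r = 0.58, rho = 0.62, adjusted permutation p = 0.0076 and 0.0080), and did so without replicate 2 (r = 0.63, adjusted permutation p = 0.028). The other marker lists did not pass. For 3 neuron markers r was -0.69 (adjusted permutation p = 0.084), a larger size than the endothelial r, and -0.31 without replicate 2 (0.51). For erythroid markers it was -0.36 (adjusted permutation p = 0.12), for cardiomyocyte markers 0.19 (0.41), for cycling markers 0.20 (0.33) and for liver and endoderm markers -0.09 (0.65). Their part in the correlation of Nipbl with its partners was not tested. By genotype the index was -0.14 ± 0.31 (SD, n = 10) in wildtype, -0.0024 ± 0.21 in Isl1 +/-, 0.05 ± 0.40 in Nipbl +/- and 0.11 ± 0.34 in double heterozygous hearts (n = 9 each). With the index as a term of the edgeR fit, the averaged change was -0.79 for Nipbl and 0.26 for Stag1 (adjusted p = 5.1e-04), beside -0.80 and 0.25 without it.

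Among all 45 pairs of the 10 genes, 35 passed after adjustment over the 45, and 30 did without Nipbl +/- replicate 2. The count was 11 with the first principal component removed, 18 with the length index removed and 8 with the index removed and replicate 2 left out. With levels taken as residuals of genotype plus set it was 40, and centred by genotype alone 44. At an unadjusted permutation p under 0.05 stood 35 of the 45 pairs (77.8%), against 33.1% of pairs of 1 of the 10 genes with any other gene tested, and 31 (68.9%) against 28.3% without replicate 2. These shares count either sign of r, and the other genes were not matched for exon length. The highest r was that of Stag2 with Wapl, 0.93 in 34 libraries and 0.86 without that library (adjusted permutation p = 4.5e-04 and 2.2e-04). In both settings this r was larger than that of either gene with Nipbl, a difference that was not tested. Smc3 with Stag2 had an r of 0.90 and 0.65. Pds5a with Pds5b reached 0.61 and 0.66, while Pds5b with Smc3 went from -0.08 to 0.67 once the library was left out.

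The genes whose levels between libraries were most like those of Nipbl were, in 34 libraries, Gsk3b (r = 0.96), Phf3 (0.96), Nsd3 (0.96), Rbpj (0.96) and Arl5b (0.96), taken from genes whose mean log2 CPM was 1 or more. Without Nipbl +/- replicate 2 they were Pdzd8 (0.92), Prkd3 (0.92), Med13 (0.91), Chd1 (0.91) and Dcaf1 (0.91). The lists shared no gene, and all 10 genes on them had more than 5 kb of exon. In libraries with both Nipbl copies intact, Rad21 was place 2 of all genes (r = 0.93), after Dnajc14 (0.95).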

How the data were processed

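RNA was measured in 37 E10.5 heart libraries. The authors deposited 1 table of raw counts per gene, made with STAR and featureCounts on GRCm38/mm10 per the submitters' processing notes; versions, strand setting and annotation are not given in the sources used here, and gene lengths and positions came from GENCODE M21. Libraries were grouped by the genotype in their titles. Counts were tested with edgeR 4.0.16 (R 4.3.3, limma 3.58.1): filterByExpr by genotype (minimum count 10, total 15), TMM, genotype plus set number, quasi-likelihood test over 15046 genes, Benjamini-Hochberg threshold 0.05. CPM values use the TMM library sizes. Levels per kilobase divide CPM by the summed exon length. Correlations used log2 CPM with a prior count of 2. Alternatives were DESeq2 1.42.0, sva 3.50.0 (2 surrogate variables), other scaling, filters and covariates, and each library or set left out; the length index was added after seeing the data. The fits were tested on simulated data. The naming rule covered all 10 members, pathway genes past the threshold and the 5 genes with the highest r with Nipbl; every member was tested in each comparison, and the other pathway genes are listed without values. 1 gene first chosen for the pathway list is not reported here, for a reason unrelated to its values, so counts over that list hold only for the genes reported. Members and lists were chosen with earlier results of these data known. Total counts were 23356831 to 50974736 per library, so counting error was small.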

Additional observations from a re-analysis of the deposited data

Results flagged for a closer look

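In 40 groups of values (10 genes in 4 genotypes), 10 had a highest or lowest library far from the others by Dixon's test, which flags about 5% of groups by chance. Nipbl +/- replicate 2 was such a library for 8 genes, each time as the highest of its group: Nipbl at 72.4 CPM, Mau2 at 72.2, Smc1a at 262, Smc3 at 318, Rad21 at 404, Stag1 at 128, Stag2 at 237 and Wapl at 129 CPM. These 8 flags come from 1 library and are not independent of each other. The nearest other Nipbl +/- library was at 44.9 CPM for Nipbl and 145 CPM for Smc3. Wildtype replicate 3 was low for Smc1a, at 165 CPM where the next library was at 187. Isl1 +/- replicate 9 was high for Pds5b, at 78.3 CPM where the next was at 61.8.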

How the results depend on the processing

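The fall of Nipbl kept its direction under all 50 alternatives in each of its 4 comparisons (from -0.610 to -0.995 in Nipbl +/- against wildtype, -0.65 to -0.95 on average), and its call in all but 1. In Nipbl +/- against wildtype the number of members past the threshold was 1, with 0 without set 2, 2 with no set term, under the replicate block or with the length index as covariate, 3 with 2 surrogate variables, and 1 to 2 when single libraries were left out. In double heterozygous against wildtype it was 1, with 2 with no set term, under the replicate block or with 2 surrogate variables, and 1 to 2 without single libraries. In double heterozygous against Isl1 +/- it was 1, with 2 with the length index or 2 surrogate variables, and 1 to 2 without single libraries. The average had 2, with 3 with 2 surrogate variables, 1 without set 1 or set 6, and 1 to 2 without single libraries; Stag1 stayed positive in all 50, from 0.13 to 0.39. No member was called in the Isl1 comparisons, in double heterozygous against Nipbl +/- or in the interaction under any of the 50. Pds5b on average turned from -0.12 to 0.047 with no set term and to 0.047 under the replicate block.

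Replicate numbers were shared by genotypes, but same-numbered libraries did not deviate together (median r 0.03 over 54 pairs, from -0.45 to 0.55, with 17 over 0.1), and 3 of 36 libraries correlated best with their own number, so the numbers were not taken as pairs. Under the replicate block the averaged change was -0.69 for Nipbl and 0.37 for Stag1.

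Over all 8 comparisons the pathway list had 0 calls, with 2 (Chtf18 and Stag3) with no set term, 1 (Chtf18) under the replicate block, 2 (Stag3 and Tipin) with the length index, 4 (of Chtf18, Stag3 and Timeless) with 2 surrogate variables, and 0 to 2 without single libraries. Set number passed for 6 members, with 2 with the length index, 4 without set 1, 1 without set 2, 8 without set 5, 5 without set 6, 7 with 2 surrogate variables and 6 to 8 without single libraries (8 without Nipbl +/- replicate 2). Correlated partners numbered 8, with 4 after removal of the first principal component, 5 after removal of the length index and 0 when replicate 2 of Nipbl +/- was left out as well; correlated pairs numbered 35, with 11, 18 and 8, and 25 to 35 without single libraries. Residuals of genotype plus set gave 9 partners and 40 pairs, and centring by genotype alone 9 and 44. With the length index removed, r of Nipbl was -0.013 with Pds5a and -0.40 with Pds5b, but 0.62 and 0.46 when replicate 2 of Nipbl +/- was left out as well. Over all genes, the count of calls for the averaged Nipbl change ran from 152 to 2038. The cause of these shifts was not tested.

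Counts of these genes were high in every library. Limits of the design are the spread between libraries, uneven genotypes per set and the lone library of set 7, and the weight of each was not tested. Counts by gene do not separate transcripts of the null allele, and whole hearts do not separate cell types. No protein or binding was measured.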
